A study of Mus musculus with 8 samples.

Results

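The expression of 10 genes of the prostaglandin pathway was compared in colon tumours with and without activated AKT. They encode the cyclooxygenases (Ptgs1, Ptgs2), 3 synthases acting after them (Ptges, Ptgis, Ptgds), the inactivating enzyme Hpgd and the 4 receptors of prostaglandin E2 (Ptger1 to Ptger4). These genes were chosen by name for their roles, with earlier results of these data known. They were found by symbol among the 38355 genes of the count tables. All 10 were present, and 9 had enough reads for a test, the exception being Ptgds. Ptger3 was the member that passed the test. Its level was 32.3-fold higher in the tumours with activated AKT, and the groups did not overlap.

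The samples were 8 whole colon tumours, 1 from each of 8 mice, and all mice had received the colon carcinogen azoxymethane. In 4 mice (Trp53ΔIEC) the tumour suppressor gene Trp53 was deleted in intestinal epithelial cells (ΔIEC). In the other 4 (Trp53ΔIECAktE17K) the epithelium carried in addition AktE17K, an activating substitution in the kinase AKT. The sources used here do not name the Akt gene altered, the Cre driver, the age of the mice or a batch. Polyadenylated RNA was sequenced without a record of strand, and the reads assigned to genes numbered 18572180 to 26268547 per tumour. Epcam, the epithelial adhesion gene, lay between 1101 and 2507 CPM (read counts scaled to a common library size) in the 8 tumours, so epithelium was present in each.

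Prostaglandins are made from arachidonic acid, which phospholipases release from membranes. The cyclooxygenases turn it into prostaglandin H2, the shared precursor from which separate synthases make prostaglandin E2, prostacyclin, prostaglandin D2 and thromboxane. COX-1 (Ptgs1) is made steadily in many cells, whereas COX-2 (Ptgs2) is induced by cytokines and growth factors and is often abundant in intestinal tumours. Prostaglandin E2 acts through the G protein coupled receptors EP1 to EP4, of which EP2 and EP4 raise cAMP and EP3 mainly lowers it. The dehydrogenase encoded by Hpgd oxidises and so inactivates prostaglandins.

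The promoters of a pair of genes are shown, that of Ptger3 because it was the member that passed the test, and that of Ptgs2 as the textbook inducible promoter of the pathway. Each runs from 250 bases before to 50 bases after the gene's start, 5′ to 3′ on the gene's strand, from RefSeq on GRCm38.p6. Capitals mark matches to the motifs searched on both strands.
Ptger3: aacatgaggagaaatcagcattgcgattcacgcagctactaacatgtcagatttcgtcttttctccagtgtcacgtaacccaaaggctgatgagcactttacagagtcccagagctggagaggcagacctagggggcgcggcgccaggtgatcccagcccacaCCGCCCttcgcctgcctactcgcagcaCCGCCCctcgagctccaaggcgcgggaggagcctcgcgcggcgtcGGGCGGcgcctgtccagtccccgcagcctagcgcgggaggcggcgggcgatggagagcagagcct
Ptgs2: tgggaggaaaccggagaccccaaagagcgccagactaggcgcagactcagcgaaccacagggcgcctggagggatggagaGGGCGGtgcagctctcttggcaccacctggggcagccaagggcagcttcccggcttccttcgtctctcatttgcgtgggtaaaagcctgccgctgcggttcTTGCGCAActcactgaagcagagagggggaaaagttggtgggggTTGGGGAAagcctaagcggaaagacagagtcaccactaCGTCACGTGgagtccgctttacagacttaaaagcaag
The Ptger3 window lies at chr3:157566626-157566925 on the plus strand and the Ptgs2 window at chr1:150099781-150100080 on the plus strand. The search covered the TATA box (TATAAA), the CCAAT box (CCAAT), the cAMP response element in full (TGACGTCA) and as its core (TGACG), the AP-1 site (TGANTCA), the E-box (CACGTG) and the GC box (GGGCGG). It also covered the C/EBP site (TTNNGNAA), the NF-kappaB site and the CArG box. In the Ptger3 window every match was a GC box, a motif found in 35.7% of 32851 promoter windows of this length. The window was 64% G or C, against a median of 52.7% over all windows. The Ptgs2 window held a GC box, C/EBP sites (in 40.7% of windows), and a cAMP response element core (20.8%) that overlaps an E-box (7.15%). These matches describe the letters of the windows and were not tested for binding. Of the 10 genes 8 had a promoter entry. Ptgis and Ptger1 were not matched.

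The receptor genes gave the only call among the members. Ptger3 (ENSMUSG00000040016, chromosome 3, 157566892 to 157645888, plus strand, GRCm38) encodes EP3, which in the gut is known from smooth muscle and enteric neurons. Its level was 0.689, 0.188, 0.447 and 0.465 CPM in Trp53ΔIEC replicates 1 to 4, from 41 reads in all. In Trp53ΔIECAktE17K replicates 1 to 4 it was 25.4, 22.0, 6.17 and 4.80 CPM, from 1385 reads. The lowest tumour with AktE17K was thus above the highest without it, and replicates 1 and 2 stood above replicates 3 and 4. The means were 0.447 ± 0.205 and 14.6 ± 10.6 CPM (SD, n = 4 each), and the log2 fold change was 5.01 ± 0.72 (SE, adjusted p = 0.0154, edgeR quasi-likelihood with Benjamini-Hochberg adjustment over 16539 genes). Among all tested genes 3.44% were called higher and 0.756% lower (4.2% in either direction), and of the 9 tested members 1 was called higher and 0 lower. An unadjusted p under 0.05 was found for 3 members, against 20.8% of all tested genes. The groups did not overlap in 14.2% of tested genes, 8.34% with the higher and 5.88% with the lower values in Trp53ΔIECAktE17K, and among the tested members only Ptger3 had no overlap. A letter of unstated meaning in the sample titles is A in Trp53ΔIECAktE17K replicates 1 and 2, the pair with the higher Ptger3, and B elsewhere. The names of the deposited tables instead carry A for all 4 tumours with AktE17K, in which case the letter and the genotype cannot be told apart. Fitted beside the letter of the titles, Ptger3 was at a log2 fold change of 3.60 (adjusted p = 0.0239). In this fit the fold change of any gene rests on Trp53ΔIECAktE17K replicates 3 and 4, since A occurs only in that genotype. The call was lost when Trp53ΔIEC replicate 2, 3 or 4 was left out (adjusted p = 0.0613, 0.0580 and 0.0675), and the adjusted p was at most 0.0404 without any 1 of the other 5 tumours.

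**Figure D1:**
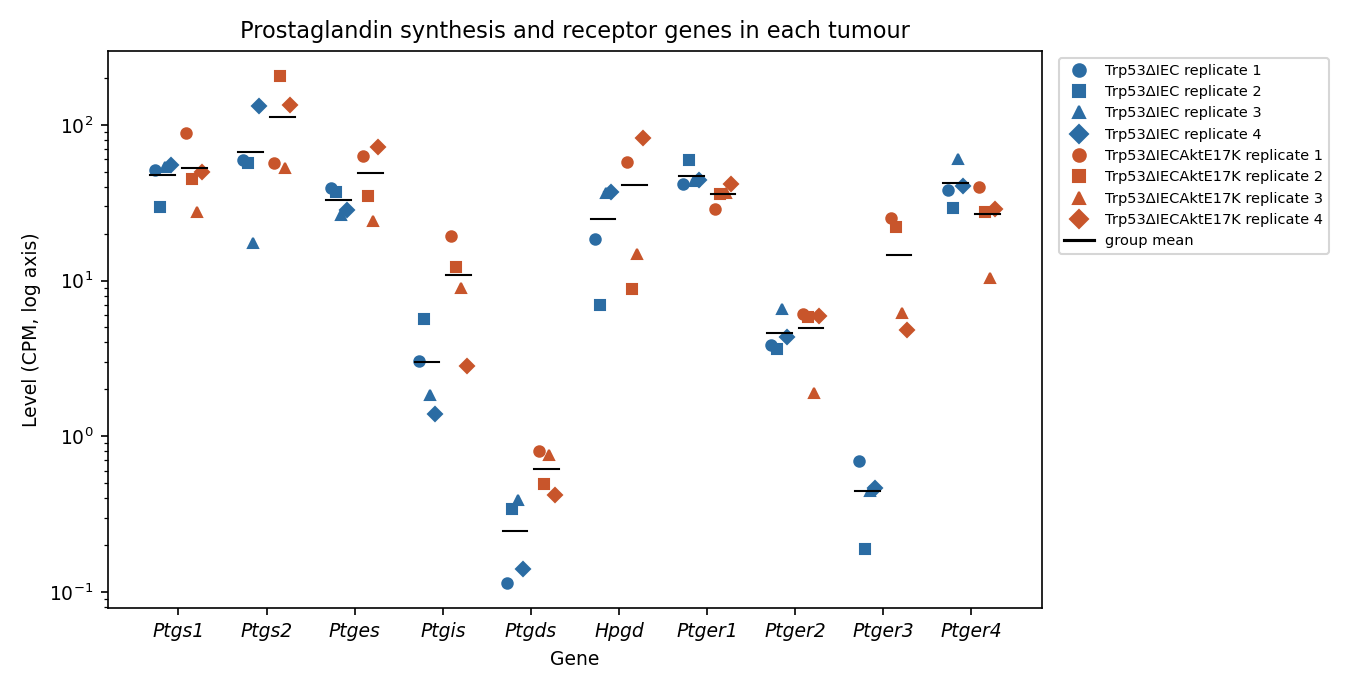
Level of each of the 10 genes in each tumour, in CPM on a log axis. Symbols are single tumours (blue, Trp53ΔIEC, and orange, Trp53ΔIECAktE17K, with a shape per replicate) and black bars are group means. Ptger3 lay at 0.188 to 0.689 CPM in Trp53ΔIEC and at 4.80 to 25.4 CPM in Trp53ΔIECAktE17K tumours, whereas the other tested genes overlapped.

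The other 3 prostaglandin E2 receptor genes did not pass the test. Ptger4, whose product EP4 raises cAMP in epithelium and leukocytes, was at 38.2, 29.1, 60.6 and 40.8 CPM in Trp53ΔIEC and at 39.9, 27.5, 10.4 and 28.9 CPM in Trp53ΔIECAktE17K tumours. The groups overlapped, with the lowest value in Trp53ΔIECAktE17K replicate 3 (log2 fold change -0.66, 95% interval -1.55 to 0.23, adjusted p = 0.377). Ptger2, for the related cAMP-raising receptor EP2, was low, with 4.58 ± 1.33 and 4.93 ± 2.03 CPM (log2 fold change 0.10, 95% interval -0.83 to 1.04, adjusted p = 0.916). Trp53ΔIECAktE17K replicate 3 was again the lowest, at 1.89 CPM against 5.80 to 6.10 CPM in the other 3 tumours of its group.

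Ptger1 encodes EP1, which acts through calcium. Its counts were 41.5, 59.1, 43.4 and 44.3 CPM in Trp53ΔIEC and 28.8, 36.0, 36.5 and 42.0 CPM in Trp53ΔIECAktE17K tumours. The ranges met only at their edges, and the difference did not pass (log2 fold change -0.39 ± 0.17, SE, adjusted p = 0.230). The level of Ptger1 is uncertain, because the reads carry no record of strand.

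Scaled by exon length, which allows levels of different genes to be compared, Ptger3 took a larger share of receptor reads in each Trp53ΔIECAktE17K tumour than in any Trp53ΔIEC tumour. It made up 1.83%, 0.646%, 0.752% and 1.16% of the summed reads per kilobase of Ptger2, Ptger3 and Ptger4 in Trp53ΔIEC replicates 1 to 4. In Trp53ΔIECAktE17K replicates 1 to 4 its share was 38.3%, 42.4%, 36.1% and 13.3%. The share of Ptger4 was 85.6% to 87.2% in Trp53ΔIEC and 51.6%, 45.3%, 51.8% and 68.7% in Trp53ΔIECAktE17K replicates 1 to 4. The share of Ptger2 was 12.2% ± 1.09 and 13.1% ± 3.40 (SD, n = 4 each). Ptger1 was left out of these shares because its level is uncertain, and the shares depend on that. With Ptger1 counted in, Ptger3 made up 0.207% to 0.852% in Trp53ΔIEC and 26.4%, 24.6%, 11.2% and 6.02% in Trp53ΔIECAktE17K replicates 1 to 4, still without overlap. Ptger4 then made up 27.5% to 49.5% and 16.1% to 35.5%, and the groups overlapped, so its separation was seen only without Ptger1. Replicate 3 was near replicates 1 and 2 in the Ptger3 share without Ptger1, and well below them with it. Since Ptger3 passed the test above, its share is given as a description with no test of its own.

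**Figure D2:**
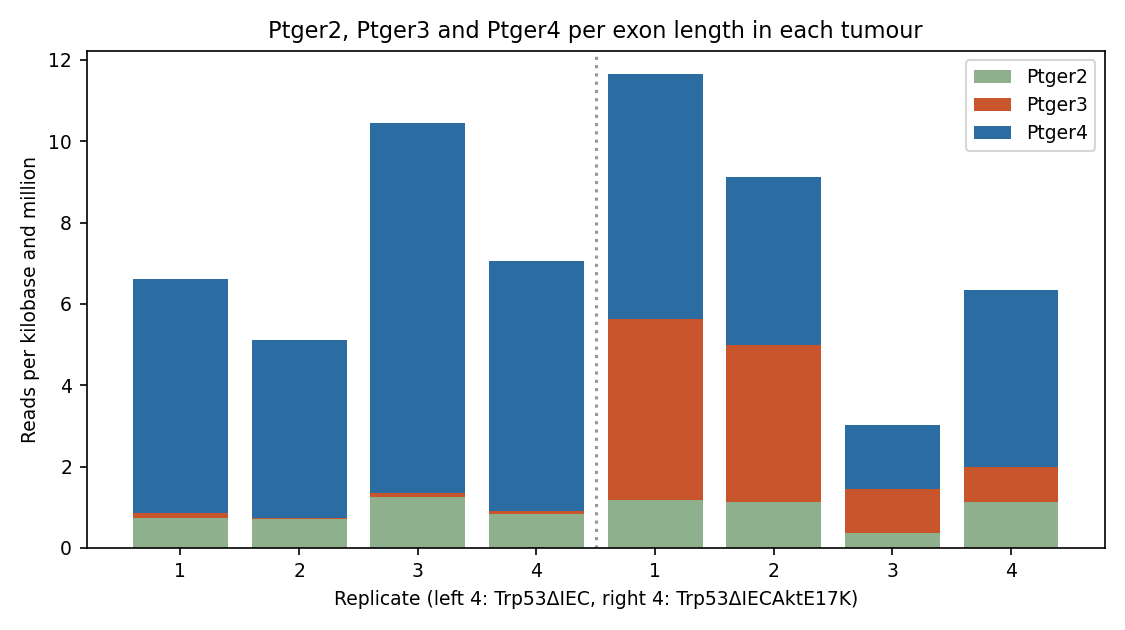
Levels of Ptger2, Ptger3 and Ptger4 in each tumour, stacked, in RPKM (reads per kilobase of exon, scaled as CPM). Ptger1, whose level is uncertain, is not drawn. Of these 3 genes Ptger4 fills 85.6% to 87.2% of each Trp53ΔIEC bar, and Ptger3 fills 13.3% to 42.4% of each Trp53ΔIECAktE17K bar.

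Ptger3 moved together with markers of several non-epithelial cell types, and in whole tumours more cells of a type and more RNA per cell cannot be told apart. Of 10 enteric glia and neuron markers 8 were tested and 4 were called higher, with a summed level of 10.4 to 30.4 CPM in Trp53ΔIEC and 49.9 to 80.6 CPM in Trp53ΔIECAktE17K tumours. Sox10, a defining gene of glia, had 0 reads in all Trp53ΔIEC tumours. Of 10 smooth muscle markers 7 were called higher (summed 396.2 to 671.5 and 1213 to 1977 CPM). Of 10 fibroblast markers 4 were called higher (2263 to 3466 and 4305 to 7197 CPM), and of 7 pericyte markers 3 (175.3 to 285.9 and 276.5 to 519.7 CPM). None of these 4 lists had a called lower gene. Over all tested genes the shares called were 3.44% higher and 0.756% lower. Within the Trp53ΔIECAktE17K group the fibroblast, pericyte and enteric sums were, like Ptger3, higher in replicates 1 and 2 than in replicates 3 and 4, while the smooth muscle sum was lowest in replicate 2. Of 10 epithelial markers 0 were called by edgeR and 4 had an unadjusted p under 0.05, against 20.8% of all tested genes. Only 1 of these markers had a positive log2 fold change and the median was -0.46, with sums of 8591 to 11038 and 4519 to 11201 CPM. The part of these cell types in the Ptger3 difference was not tested.

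Genes of a heart muscle list were also higher in the Trp53ΔIECAktE17K libraries, though the list as a whole was not silent in Trp53ΔIEC tumours. Of 13 listed, 11 were tested and 8 were called higher, against 3.44% of all tested genes. Myl3 and Sln had 0 reads in all Trp53ΔIEC tumours, and the summed level was 37.5 to 116.5 against 177.4 to 250.9 CPM. Myh6, the cardiac myosin, was at 0 to 0.223 CPM in Trp53ΔIEC and at 52.6, 47.6, 56.8 and 57.0 CPM in Trp53ΔIECAktE17K replicates 1 to 4. Across those 4 tumours Myh6 ran from 47.6 to 57.0 CPM and Ptger3 differed 5.30-fold from lowest to highest. Of 11 tested squamous epithelium markers 5 were called higher, beside the same 3.44% of all tested genes. Their sums were 88.3 to 271.7 and 215.0 to 16803 CPM, the highest in Trp53ΔIECAktE17K replicates 1 and 4. Without these 2 tumours the log2 fold change of Ptger3 was 4.94 (adjusted p = 0.0250).

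**Figure D3:**
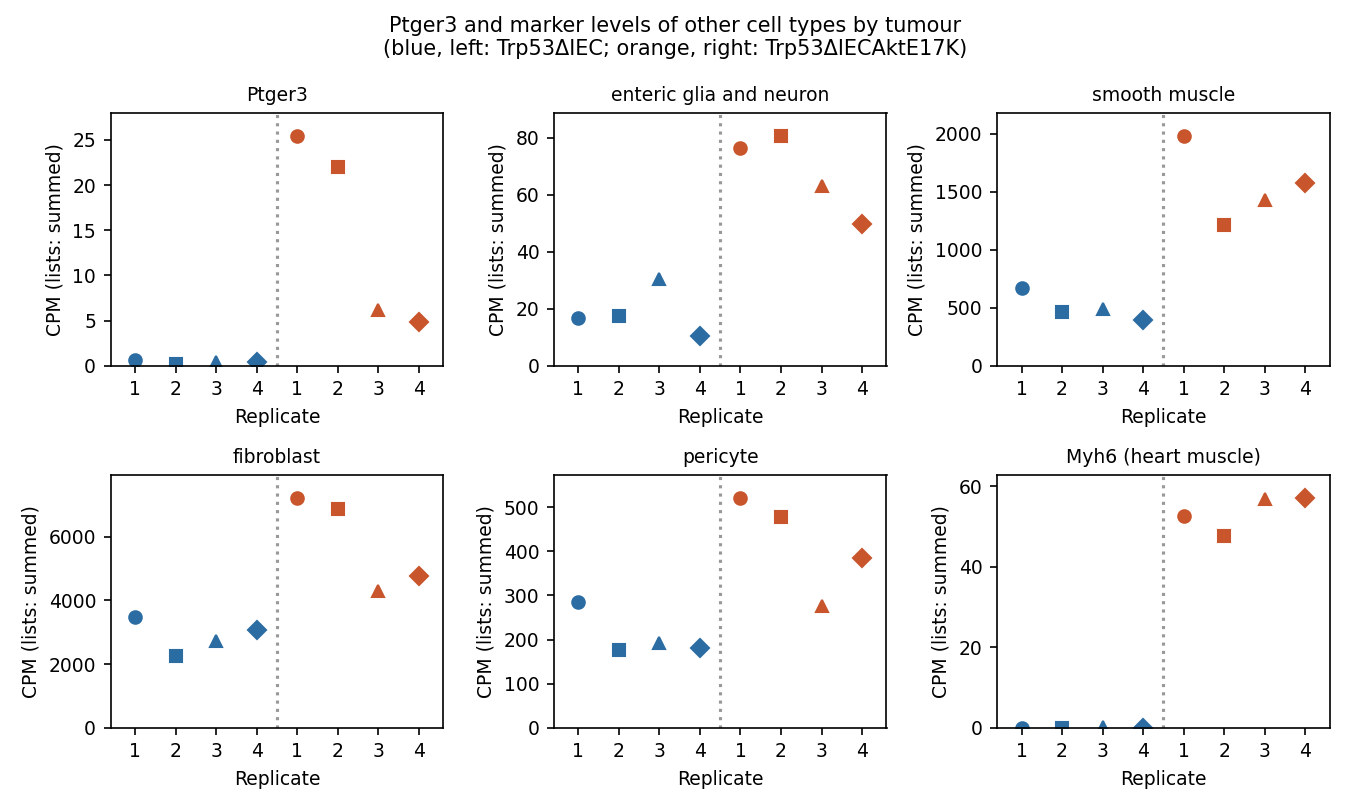
Ptger3, the summed levels of 4 marker lists and the heart muscle gene Myh6 in each tumour, in CPM on linear axes from 0. Each point is 1 tumour. Ptger3 and the fibroblast, pericyte and enteric sums are highest in Trp53ΔIECAktE17K replicates 1 and 2, whereas Myh6 lies at 47.6 to 57.0 CPM in all 4.

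By profile, the genes most like Ptger3 over the 8 tumours were Foxp2, Atp6v0a4 and Prrx1. The measure was the root mean square difference of log2 CPM, after centring each gene on its own mean, and came to 0.46, 0.51 and 0.52. Foxp2, a forkhead transcription factor gene, was at 0.0376 to 0.268 CPM in Trp53ΔIEC and at 7.07, 4.07, 2.69 and 1.63 CPM in Trp53ΔIECAktE17K replicates 1 to 4. Atp6v0a4, a proton pump subunit gene, was at 2.79 to 20.3 CPM in the latter, and Prrx1, a mesenchymal transcription factor gene, at 30.3, 21.7, 16.8 and 8.43 CPM. In all 3, as in Ptger3, replicate 1 was highest and replicate 4 lowest among the tumours with AktE17K. The genes were picked for likeness over these same tumours, so a shared order is in part fixed by that choice.

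Neither cyclooxygenase gene passed the test. Ptgs2 was at 59.4, 57.0, 17.4 and 132.4 CPM in Trp53ΔIEC and at 56.7, 205.9, 52.5 and 134.1 CPM in Trp53ΔIECAktE17K replicates 1 to 4. Each group held both low and high tumours, and the spread within Trp53ΔIEC was 7.59-fold. The log2 fold change was 0.75 ± 0.63 (SE, 95% interval -0.69 to 2.20, adjusted p = 0.539), so that neither no difference nor a 4-fold rise lies outside the interval. Ptgs1 was at 47.5 ± 11.9 and 52.6 ± 25.6 CPM (log2 fold change 0.15, 95% interval -0.65 to 0.95, adjusted p = 0.848). Per exon length Ptgs2 stood at 0.277 to 2.02 times Ptgs1 in Trp53ΔIEC and at 0.545 to 3.86 times in Trp53ΔIECAktE17K tumours. On the log2 scale the SD of Ptgs2 was 0.96 among Trp53ΔIECAktE17K tumours, against a median of 0.37 over all tested genes.

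Among the synthases, Ptgis came closest to a call. It encodes prostacyclin synthase, an enzyme of vessel walls and stroma. Its level was 3.02, 5.64, 1.84 and 1.40 CPM in Trp53ΔIEC and 19.5, 12.3, 8.99 and 2.84 CPM in Trp53ΔIECAktE17K tumours. All but replicate 4 of the latter lay above all Trp53ΔIEC tumours and replicate 4 within their range. The log2 fold change was 1.87 ± 0.64 (SE, unadjusted p = 0.0182, adjusted p = 0.145), and DESeq2 gave an adjusted p of 0.0300. Fitted beside the title letter, Ptgis was at a log2 fold change of 0.99, with an adjusted p of 0.534. That fold change rests on Trp53ΔIECAktE17K replicates 3 and 4. The stromal marker sums given for Ptger3 differed in the same direction, and their part in the Ptgis values was not tested.

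Ptges, the inducible prostaglandin E synthase often coupled to COX-2, was at 39.0, 37.1, 26.4 and 28.5 CPM in Trp53ΔIEC and at 63.2, 35.0, 24.2 and 72.6 CPM in Trp53ΔIECAktE17K tumours. Replicates 1 and 4 with AktE17K were the highest and replicate 3 the lowest of all 8 (log2 fold change 0.57, 95% interval -0.21 to 1.35, adjusted p = 0.381). Per exon length Ptgis was 0.0749 to 0.233 times Ptges in Trp53ΔIEC tumours. In Trp53ΔIECAktE17K replicates 1 to 4 it was 0.472, 0.537, 0.569 and 0.0599 times Ptges. Replicate 4 was thus below all other tumours in this ratio. Ptgds, the lipocalin-type prostaglandin D synthase, had 22 reads in all Trp53ΔIEC and 58 in all Trp53ΔIECAktE17K tumours, or 0.115 to 0.391 and 0.419 to 0.804 CPM. These values did not overlap, but Ptgds fell below the filter on low counts. Without that filter its log2 fold change was 1.33 with an adjusted p of 0.219.

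Hpgd, whose loss is common in colorectal tumours, varied widely within groups, by 5.35-fold and 9.34-fold from lowest to highest. It was at 18.5, 6.92, 36.6 and 37.0 CPM in Trp53ΔIEC and at 58.0, 8.77, 14.8 and 81.9 CPM in Trp53ΔIECAktE17K tumours. Replicate 2 was the lowest of each group, and the 2 highest tumours of all were Trp53ΔIECAktE17K replicates 1 and 4. The log2 fold change was 0.72 ± 0.76 (SE, 95% interval -1.01 to 2.46, adjusted p = 0.636). Per exon length the ratio of Ptgs2 to Hpgd was 1.18, 3.03, 0.175 and 1.32 in Trp53ΔIEC and 0.359, 8.63, 1.30 and 0.601 in Trp53ΔIECAktE17K tumours. Replicate 2 with AktE17K had both the highest Ptgs2 and, for its group, the lowest Hpgd.

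Ordered by mean level per exon length, Hpgd (14.7 RPKM), Ptgs2 (14.5) and Ptgs1 (12.2) led in Trp53ΔIEC tumours. Ptger1, Ptges and Ptger4 followed with 8.62, 8.33 and 6.34, and the ranges of neighbours in this order overlapped from Hpgd to Ptger4. Ptgis (1.16) and Ptger2 (0.883) came next with ranges below that of Ptger4, and Ptgds (0.149) and Ptger3 (0.0786) were last. In Trp53ΔIECAktE17K tumours Ptgs2 (24.5) and Hpgd (24.3) were again at the top. Ptger3 (2.57) stood eighth, above Ptger2 (0.948) and Ptgds (0.375), and all neighbours overlapped in range.

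Other genes of the pathway were followed in lists. Of 17 genes for arachidonic acid release and other prostanoid synthases, 14 were tested and 1 was called higher, against 3.44% of all tested genes, with a median log2 fold change of 0.20 beside 0.01 over all tested genes. That gene was Mgll, a lipase that releases arachidonic acid from its monoacylglycerol (14.9 ± 3.42 and 32.7 ± 5.32 CPM, log2 fold change 1.13 ± 0.21, adjusted p = 0.0271). Its call was lost without Trp53ΔIEC replicates 2, 3 and 4 (adjusted p = 0.0819, 0.0834 and 0.0844) and without Trp53ΔIECAktE17K replicates 1 and 2 (0.0832 and 0.0710). It was also lost with the title letter as a term (0.144) and without both Trp53ΔIECAktE17K replicates 1 and 4 (0.0705). Pla2g4c, a phospholipase A2 gene, was at 220.7 CPM in Trp53ΔIECAktE17K replicate 2, at 2.33 to 3.82 CPM in the other 3 and at 4.37 to 39.7 CPM in Trp53ΔIEC tumours (adjusted p = 0.555). Tbxas1, the thromboxane synthase, and Akr1b3, an aldose reductase, did not pass, with log2 fold changes at -0.71 and 0.29 and adjusted p at 0.369 and 0.554.

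Of 5 other prostanoid receptor genes 2 were tested and 0 were called by edgeR, with both at an unadjusted p under 0.05 and both called by DESeq2. By edgeR 20.8% of all tested genes had an unadjusted p under 0.05. Tbxa2r, the thromboxane receptor, was at 1.22, 0.865, 0.894 and 0.512 CPM in Trp53ΔIEC and at 3.17, 3.37, 2.23 and 1.68 CPM in Trp53ΔIECAktE17K tumours. The groups did not overlap (log2 fold change 1.57 ± 0.37, SE, adjusted p = 0.0540, DESeq2 0.00183). Ptgir, the prostacyclin receptor, was at 0.698 to 1.84 and 2.18 to 3.42 CPM, again without overlap (log2 fold change 1.27 ± 0.38, adjusted p = 0.107, DESeq2 0.0176). Ptgdr, Ptgdr2 and Ptgfr were below the filter.

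Of 6 genes for prostaglandin transport and reduction 1 was called higher and 0 lower, against 3.44% and 0.756% of all tested genes. The median log2 fold change was -0.17. Cbr3, a carbonyl reductase, was at 1.88, 1.54, 3.35 and 2.23 CPM in Trp53ΔIEC and at 25.7, 9.88, 66.8 and 15.8 CPM in tumours with AktE17K (log2 fold change 3.72 ± 0.63, SE, adjusted p = 0.0232). Replicate 3 of the latter was highest, and leaving it out gave a log2 fold change of 2.94. The call of Cbr3 was lost when any Trp53ΔIEC tumour was left out (adjusted p = 0.0613, 0.0819, 0.0630 and 0.0796 for replicates 1 to 4), or Trp53ΔIECAktE17K replicate 1 (0.0567), and with limma-voom (0.0513). The uptake transporter Slco2a1 and the reductases Ptgr1 and Ptgr2 did not pass, with log2 fold changes at 0.77, -0.50 and -0.39 and adjusted p at 0.294, 0.505 and 0.147. In the lipoxygenase and leukotriene branch 0 of 12 tested genes were called. An unadjusted p under 0.05 was found for 6, against 20.8% of all tested genes, and the median log2 fold change was 0.04. Alox5ap, which presents arachidonic acid to 5-lipoxygenase, and Ltc4s, the leukotriene C4 synthase, were not called at log2 fold changes of 1.38 and 1.21, without overlap of the groups (adjusted p = 0.0766 and 0.0848, DESeq2 0.00518 and 0.0235). The gene of 5-lipoxygenase itself, Alox5, was at 10.2 ± 4.61 CPM in Trp53ΔIEC and at 4.59 ± 2.18 CPM in Trp53ΔIECAktE17K tumours. Its log2 fold change was -1.15 (adjusted p = 0.212). Aloxe3 and Alox12b, lipoxygenases of stratified epithelium, were not called either, at 2.59 and 3.95 (adjusted p = 0.0725 and 0.125, DESeq2 0.00295 and 0.00367). Without Trp53ΔIECAktE17K replicates 1 and 4, the tumours richest in squamous markers, these log2 fold changes were 1.77 and 0.73.

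**Figure D4:**
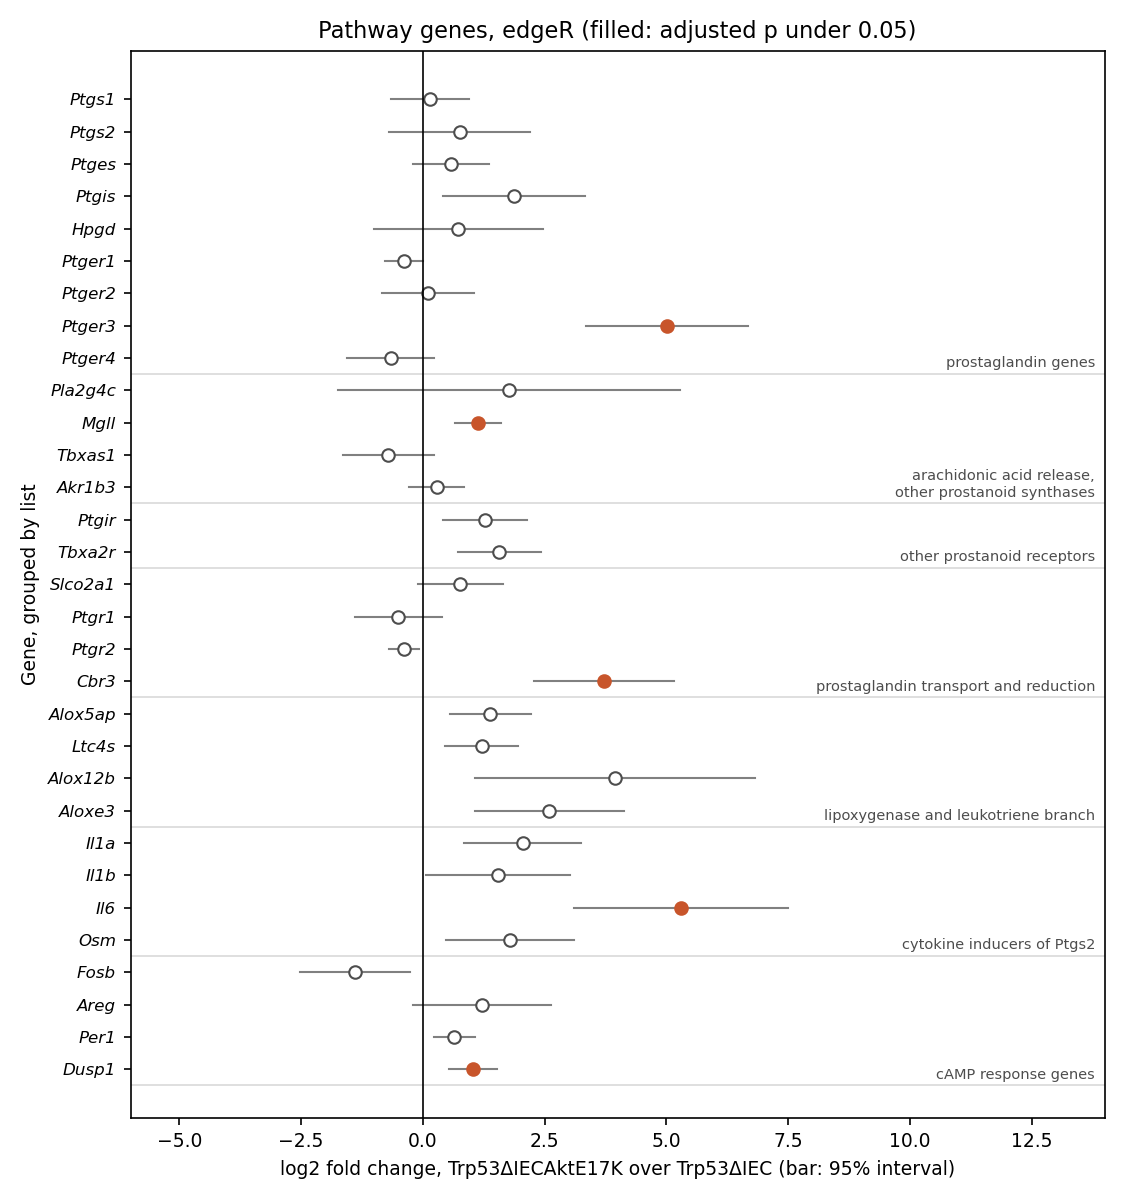
Log2 fold change (Trp53ΔIECAktE17K over Trp53ΔIEC) of the 9 tested prostaglandin genes and of named genes from 6 pathway lists, with 95% intervals from edgeR. Filled points had an adjusted p under 0.05, namely Ptger3, Mgll, Cbr3, Il6 and Dusp1.

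Cytokines that induce Ptgs2 in other settings were examined beside it. Of 8 listed, 7 were tested, and 1 was called higher and 0 lower, against 3.44% and 0.756% of all tested genes. An unadjusted p under 0.05 was found for 4, against 20.8% of all tested genes, and the median log2 fold change was 1.54. Il6 was at 0.574, 0.865, 0.391 and 0.372 CPM in Trp53ΔIEC and at 3.82 to 62.9 CPM in tumours with AktE17K (log2 fold change 5.30 ± 0.96, adjusted p = 0.0264). Without replicate 2 of the latter it was 3.91 (adjusted p = 0.0260). The call of Il6 was lost without Trp53ΔIEC replicates 1 to 4 in turn (adjusted p = 0.0665, 0.0819, 0.0825 and 0.0871) and without Trp53ΔIECAktE17K replicate 1 (0.05005). It was also lost with limma-voom (0.0589) and beside the title letter, at a log2 fold change of 3.99 and an adjusted p of 0.0973.

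Il1a was at 3.87 to 10.8 CPM in Trp53ΔIEC and at 22.3, 64.4, 12.3 and 29.8 CPM in Trp53ΔIECAktE17K tumours, without overlap (log2 fold change 2.05, adjusted p = 0.0730, DESeq2 0.00257). Il1b was at 15.5 to 68.7 CPM in Trp53ΔIEC and at 48.3, 307.4, 79.8 and 92.6 CPM in tumours with AktE17K (log2 fold change 1.54, adjusted p = 0.220). Osm, an interleukin 6 family cytokine, was at 1.49 to 5.53 CPM in the former and at 3.94, 19.7, 7.10 and 12.2 CPM in the latter (adjusted p = 0.127, DESeq2 0.0203). Without Trp53ΔIECAktE17K replicate 2 the log2 fold changes of Il1a, Il1b and Osm were 1.44, 0.67 and 1.29. Other inducers of the list had lower means in tumours with AktE17K. Tnf was at 28.9 ± 9.71 and 15.5 ± 7.37 CPM and Il17a at 3.89 ± 5.91 and 0.909 ± 0.420 CPM, with log2 fold changes of -0.90 and -2.09 that did not pass (adjusted p = 0.282 and 0.366). The tumour with the highest Ptgs2, Trp53ΔIECAktE17K replicate 2, was also the highest of all 8 in Il1a, Il1b, Il6 and Osm. Trp53ΔIEC replicate 4, the highest of its group in Ptgs2, was not the highest of its group in any of these 4 genes. Of 10 neutrophil markers 2 were called higher, against 3.44% of all tested genes. Their summed level was 364.2 to 682.2 CPM in Trp53ΔIEC and 957.6, 2049, 334.9 and 1021 CPM in Trp53ΔIECAktE17K replicates 1 to 4. It was highest in the same replicate 2. The part of neutrophils in these cytokine values was not tested.

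**Figure D5:**
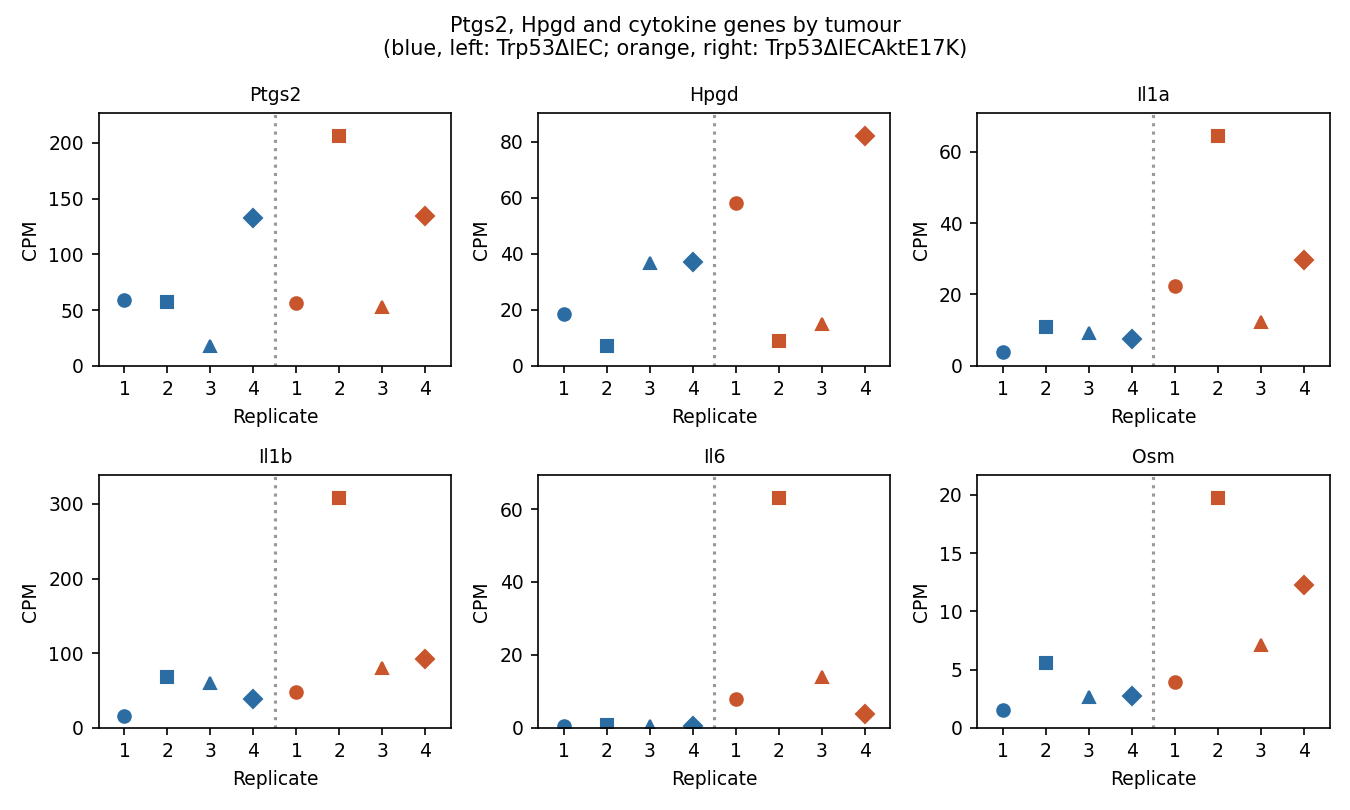
Ptgs2, Hpgd and the cytokine genes Il1a, Il1b, Il6 and Osm in each tumour, in CPM on linear axes from 0, 1 point per tumour. Trp53ΔIECAktE17K replicate 2 is highest in Ptgs2 (205.9 CPM) and in all 4 cytokine genes, and is the lowest of its group in Hpgd (8.77 CPM).

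Genes that respond to cAMP, the second messenger of EP2 and EP4, showed 1 higher and 0 lower calls among 12 tested. The shares over all tested genes were 3.44% and 0.756%. The median log2 fold change of the list was -0.16. Dusp1, a phosphatase that dampens MAP kinases, was at 32.9 ± 6.11 and 66.9 ± 18.3 CPM without overlap (log2 fold change 1.03 ± 0.22, adjusted p = 0.0415). Its call was lost without any 1 of 6 tumours, with adjusted p of 0.0915, 0.119, 0.109 and 0.0761 without Trp53ΔIEC replicates 1 to 4 and of 0.0832 and 0.0949 without Trp53ΔIECAktE17K replicates 1 and 2. It was also lost with the title letter as a term (0.128) and without both Trp53ΔIECAktE17K replicates 1 and 4 (0.0868). The clock gene Per1, the EGF receptor ligand Areg and the AP-1 subunit gene Fosb did not pass, with log2 fold changes at 0.64, 1.21 and -1.39 and adjusted p at 0.0976, 0.306 and 0.157.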

How the data were processed

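The authors deposited unscaled whole-number read counts per Ensembl gene, 1 table per tumour. Per the submitters' processing notes, mm10, HTSeq 0.6, STAR 2.3.0, DESeq2 1.8.1, CASAVA 1.8.2 and SAMtools 1.2 were used, with no roles stated. The sources used here give neither annotation release nor strand setting. Lines that name no gene were set aside, of which reads in no feature made up 9.74% to 11.7% and ambiguous reads 1.93% to 2.32% of uniquely aligned reads. Symbols, positions and union exon lengths came from GENCODE M21 (GRCm38), which held 95.4% of identifiers.

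Counts were filtered with filterByExpr, scaled by TMM and tested with edgeR 4.0.16 (R 4.3.3) by its quasi-likelihood test, with robust estimation and the group as the only term, all 8 tumours entering. The SE is that of the log2 fold change, its size divided by the root of F. P-values were adjusted over 16539 genes, and an adjusted p under 0.05 was a call. The code was tested on simulated data. CPM are means ± SD over 4 tumours. Alternatives were RLE and total count scaling, no filter, DESeq2 1.42.0, limma-voom (limma 3.58.1), the replicate block, the title letter as a term and the removal of tumours.

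The members and lists were chosen with earlier results of these data known. All members were named, and from each of 6 pathway lists the called genes plus the 2 uncalled with the smallest p, or up to 4 by p where fewer than 2 were called. For the called member the 3 nearest profiles were named, among tested genes whose abundance by edgeR (the log2 of an average CPM over tumours) was no lower than 1 and that were not named as predicted models. Alox5, Tnf, Il17a and marker genes named singly outside these rules were chosen after their values were seen. Pla2g4b was not analysed here, and some items are not reported here.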

Additional observations from a re-analysis of the deposited data

Results flagged for a closer look

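In a group of 4 tumours, a tumour was singled out where its gap to the nearest other tumour was above Dixon's 95% critical share of the group's range. This was checked in 20 groups, the 10 genes in each genotype, and chance marks about 1 in 20. It marked 2. Ptger2 was at 1.89 CPM in Trp53ΔIECAktE17K replicate 3, while the other 3 tumours of the group lay at 5.80 to 6.10 CPM (gap over range 0.930). Ptger1 was at 59.1 CPM in Trp53ΔIEC replicate 2, while the other 3 lay at 41.5 to 44.3 CPM (gap over range 0.845). The level of Ptger1 is uncertain without a record of strand.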

How the results depend on the processing

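Ptger3 was the member called in the main test, and 1 member was called under RLE scaling, total count scaling, no filter, limma-voom, the title letter as a term and the removal of Trp53ΔIECAktE17K replicates 1 and 4. DESeq2 called 2, Ptger3 and Ptgis (log2 fold change 1.86). With 1 tumour left out the number was 0 to 1, and the log2 fold change of Ptger3 was 4.59 to 5.31. No member was called lower in any of these runs. The deviations of same-numbered tumours from their group means had correlations of -0.243 to 0.00928, and those of other pairs -0.242 to 0.25. With 4 tumours a group these values cannot settle whether the numbers mark a pairing. With the replicate block 0 members were called, Ptger3 was at 4.75 on the log2 scale with an adjusted p of 0.0664, and 48 genes were higher and 2 lower in all, against 569 and 125. The calls of Mgll, Cbr3, Il6 and Dusp1 were lost in that edgeR run too (adjusted p = 0.0834, 0.0513, 0.0542 and 0.0685).

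Over all genes DESeq2 called 1715 higher and 764 lower, the letter term 90 and 6, and runs without 1 tumour 64 to 702 and 10 to 247. The run without Trp53ΔIECAktE17K replicates 1 and 4 called 460 higher and 223 lower. Leaving tumours out also leaves fewer degrees of freedom. Some uncalled members changed sign. With the letter term Ptgs1 and Ptger2 had log2 fold changes of -0.30 and -0.23. Without replicates 1 and 4 of Trp53ΔIECAktE17K, Ptgs1, Ptges, Hpgd and Ptger2 had -0.41, -0.17, -1.10 and -0.27. With 1 tumour left out, Ptgs1 ranged from -0.24 to 0.37 and Ptger2 from -0.034 to 0.38. Pla2g4c ranged from -2.41 to 2.60 there, and was -0.18 with limma-voom, -1.06 with the replicate block and -2.20 with the letter term. The cause of these changes was not tested. Ptgds, at 3 to 19 reads per tumour, and the receptor genes below the filter are limited by depth.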

Other observations

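Cells that make or meet prostanoids were also followed by their markers. Of 10 mast cell markers 0 were called and 2 had an unadjusted p under 0.05, against 20.8% of all tested genes. The median log2 fold change was -1.60, with sums of 131.9 to 1759 CPM in Trp53ΔIEC and 178.4 to 463.9 CPM in Trp53ΔIECAktE17K tumours. Mcpt1, a mast cell protease gene of the mucosa, was at 695.4, 348.0, 487.0 and 46.3 CPM in the former and at 27.6, 153.2, 1.51 and 120.1 CPM in the latter. Kit, a receptor of mast cells and interstitial cells, was at 7.03 to 41.3 and 25.3 to 292.3 CPM, highest in Trp53ΔIECAktE17K replicate 3 (adjusted p = 0.159). Hpgds, the prostaglandin D synthase of mast and tuft cells, was at 23.4 ± 15.1 and 21.4 ± 22.1 CPM (adjusted p = 0.944). These genes were chosen after their values were seen.

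Among the remaining marker lists, 1 of 9 endothelial, 1 of 4 mesothelial, 2 of 10 neutrophil and 1 of 6 tuft cell genes tested were called higher and 0 lower. Over all tested genes 3.44% were called higher and 0.756% lower. Of 9 macrophage and monocyte, 8 T cell, 10 epithelial and 3 adipocyte genes tested, 0 were called by edgeR. An unadjusted p under 0.05 was found for 1, 0, 4 and 1 of them in turn, against 20.8% of all tested genes. Of 10 tested hepatocyte genes 1 was called lower, Crp, an acute phase gene, at 4.80 to 5.64 CPM in Trp53ΔIEC and at 0 to 0.0423 CPM in Trp53ΔIECAktE17K tumours.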
